A study of Mus musculus with 16 samples.

Results

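The genes described here are 7 that mark B lymphocytes: Cd79a, Cd79b, Blk, Cd22, Ms4a1, Cd37 and Pax5. They are known markers of the lineage, taken by gene symbol with earlier results of these data known, and are 7 of the 19505 genes measured, each with 1 probe set on the array. Olfactory mucosa was taken from S100a5-tauGFP mice, whose green fluorescent reporter is tied to S100a5, a gene of olfactory sensory neurons that encodes a calcium-binding protein and rises with neuronal activity. Dissociated cells were sorted by flow cytometry into a GFP+ and a GFP- fraction, and RNA of each fraction went onto a Clariom S array. The 4 groups were GFP+ and GFP- cells after octanol and GFP+ and GFP- cells after vehicle, with 4 arrays each, and each array holds cells pooled from 3 mice. All 24 mice carried the reporter, were of both sexes and 7 to 12 weeks old, and spent 40 h singly in chambers with clean air at 3.1 L/min. From 26 h they received 10 s of octanol (an alcohol odorant) or filtered air (vehicle) every 20 min. Both fractions held RNA of mature olfactory sensory neurons: their marker Omp lay between 17.98 and 18.24 log2 on all 16 arrays, near the top of the measured range (18.70 log2). Of 12 genes of these neurons, 5 were higher in GFP+ cells after octanol and 4 after vehicle, and none was lower. S100a5 was higher in GFP+ than in GFP- cells by 0.86 log2 after octanol (adjusted p = 4.61e-04, limma) and by 0.82 log2 after vehicle (adjusted p = 6.38e-04, limma).

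A B cell senses antigen through a membrane immunoglobulin that cannot signal by itself. CD79A and CD79B pair beside it and carry the tyrosine motifs that Src-family kinases such as BLK phosphorylate, while CD22, a sialic acid-binding lectin, recruits phosphatases that damp the signal. PAX5 holds precursors in the B lineage and activates several of these genes, Cd79a among them, and it is switched off in plasma cells, the antibody-secreting end of the lineage. Lymphocytes and plasma cells are part of the immune defence of the nasal lining.

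Promoters were looked up because the members belong to a shared regulatory programme, in which PAX5, EBF1, PU.1 and octamer-binding factors act. Of the 7 genes, 4 had a promoter in the RefSeq table (mouse assembly GRCm38.p6), namely Cd79a, Cd22, Cd37 and Pax5. Each entry spans 300 bases around the listed start, most of them before it. For Cd22 and Cd37, both on the - strand, that start lies inside the gene's listed bounds, which reach 30880342 and 45239340. Positions given for these 2 genes are thus relative to an internal start. Both strands were searched for the octamer ATGCAAAT, the EBF palindrome (TCCC, any 2 bases, GGGA) and the PU.1 core GAGGAA, 3 patterns with no overlap among the matches found. The 3 entries with a match are printed 5′ to 3′ on the gene's strand, with matches in capitals; they lie at chr7:24897247-24897546 (Cd79a, + strand), chr7:30878979-30879278 (Cd22, - strand) and chr7:45238790-45239089 (Cd37, - strand).
Cd79a: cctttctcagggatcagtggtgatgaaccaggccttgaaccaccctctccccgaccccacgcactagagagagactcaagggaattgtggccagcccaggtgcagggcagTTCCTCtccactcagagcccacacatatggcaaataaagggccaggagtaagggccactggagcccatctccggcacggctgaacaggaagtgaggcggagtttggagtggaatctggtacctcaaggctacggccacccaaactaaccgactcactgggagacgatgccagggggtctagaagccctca
Cd22: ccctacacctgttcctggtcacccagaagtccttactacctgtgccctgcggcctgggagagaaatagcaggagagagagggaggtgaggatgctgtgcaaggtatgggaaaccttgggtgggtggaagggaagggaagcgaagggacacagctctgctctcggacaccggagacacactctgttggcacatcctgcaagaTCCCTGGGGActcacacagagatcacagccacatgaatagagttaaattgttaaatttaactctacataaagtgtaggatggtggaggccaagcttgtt
Cd37: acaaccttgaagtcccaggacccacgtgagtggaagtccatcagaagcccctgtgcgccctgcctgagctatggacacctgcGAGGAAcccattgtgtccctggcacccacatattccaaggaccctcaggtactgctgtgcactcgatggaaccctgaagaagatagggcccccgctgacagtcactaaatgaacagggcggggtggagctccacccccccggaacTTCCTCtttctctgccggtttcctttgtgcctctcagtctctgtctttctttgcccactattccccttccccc
The Cd79a entry holds the PU.1 core, read on the opposite strand, 140 bases before the start. The Cd22 entry holds the EBF palindrome 49 bases before the start. The Cd37 entry holds the PU.1 core 168 bases before the start and again, on the opposite strand, 23 bases before it. The PU.1 core occurs in 28.3% of 32851 promoters of this length, the EBF palindrome in 0.904% and the octamer in 1.74%. No octamer was found in any of the 4 members' entries, and the Pax5 entry held none of the 3 patterns. These are matches of letters, not binding sites.

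All values are deposited log2 signals, where a difference of 1 is a 2-fold change. Background was put at 6.32 log2, a level that 95 percent of 321 vomeronasal receptor genes, receptors of a neighbouring sense organ, did not exceed in their means. A fold is written as "at least" where some GFP+ arrays lie under that level, and was then computed with the lower GFP+ values replaced by it and the GFP- values as deposited. The number of arrays, 4 in each group, limits the precision. Differences were tested with limma, and a change was called at an adjusted p under 0.05 over all 19505 genes.

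The members read near or under background in GFP+ cells and higher in GFP- cells. After octanol, 6 of 7 were lower in GFP+ than in GFP- cells, where 13.2% of all genes were lower, and Pax5 did not pass. After vehicle 7 of 7 were lower in GFP+ cells, against 13.5% of all genes. The median difference of the members was -1.97 log2 after octanol and -2.44 log2 after vehicle, beside 0.14 and 0.13 log2 over all genes. Every member's GFP+ arrays lay below every GFP- array of the same exposure, which 12.4% of genes did after octanol and 13.2% after vehicle. In sorted bulk RNA, fewer B cells and less RNA per B cell cannot be told apart.

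**Figure D1:**
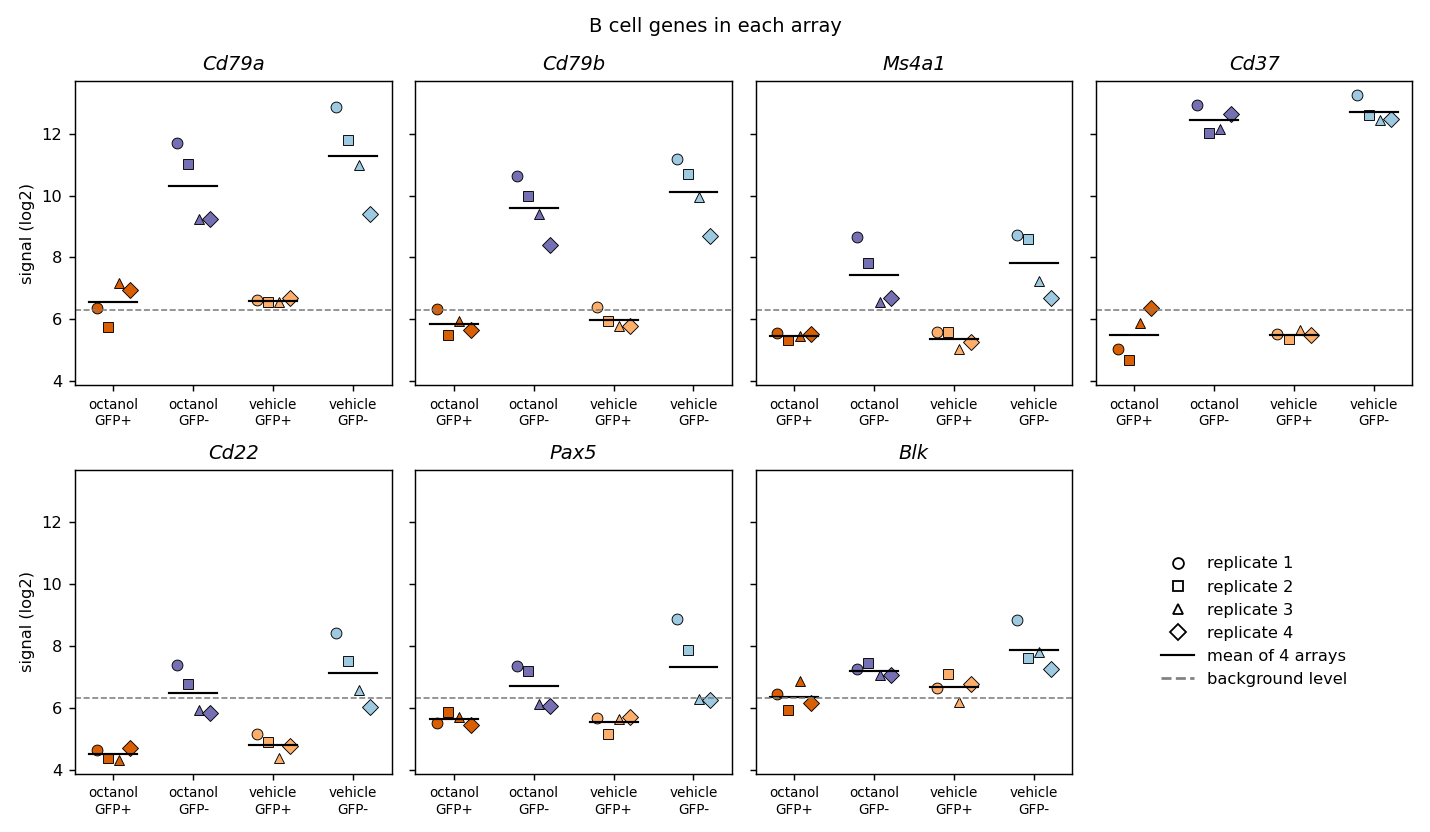
Deposited log2 signal (vertical axis) of the 7 B cell genes on each of the 16 arrays, for GFP+ and GFP- cells after octanol, then after vehicle; points are arrays, bars are group means and the dashed line is the background of 6.32 log2. GFP+ arrays sit near or under background for all 7 genes, and the GFP- arrays of the same exposure lie above them.

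The signalling chains of the receptor had the largest fraction differences of the members apart from Cd37. Cd79a read 6.35, 5.74, 7.18 and 6.95 log2 in octanol GFP+ arrays 1 to 4, against 11.70, 11.01, 9.26 and 9.24 log2 in octanol GFP- arrays. In vehicle GFP+ arrays it read 6.61, 6.55, 6.56 and 6.69 log2, against 12.86, 11.79, 10.998 and 9.41 log2 in vehicle GFP- arrays. The GFP+ arrays were near background and nearly level after vehicle, while the GFP- arrays ranged widely in both exposures and overlapped between them. After octanol the GFP+ level of Cd79a was lower by at least 12.1-fold (-3.74 log2, SE 0.66, adjusted p = 0.00195, limma). After vehicle it was 25.3-fold lower (-4.66 log2, SE 0.66, adjusted p = 4.77e-04, limma), with all 4 GFP+ arrays above background.

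Cd79b, the partner chain, read 6.33, 5.49, 5.93 and 5.66 log2 in octanol GFP+ arrays, against 10.63, 9.99, 9.41 and 8.40 log2 in octanol GFP- arrays. After vehicle it read 6.41, 5.95, 5.79 and 5.79 log2 in GFP+ arrays, against 11.18, 10.70, 9.94 and 8.68 log2 in vehicle GFP- arrays. Array 1 was the highest and array 4 the lowest of the GFP- arrays in both exposures. The GFP+ level of Cd79b was lower by at least 9.76-fold after octanol (-3.76 log2, SE 0.34, adjusted p = 2.16e-05, limma) and by at least 13.8-fold after vehicle (-4.14 log2, SE 0.34, adjusted p = 1.08e-05, limma).

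Blk, the Src-family kinase named for B lymphoid cells, had the smallest difference of the 7 in both exposures. It read 6.46, 5.95, 6.88 and 6.16 log2 in octanol GFP+ arrays, against 7.26, 7.45, 7.07 and 7.07 log2 in octanol GFP- arrays. In vehicle GFP+ arrays it read 6.65, 7.09, 6.21 and 6.78 log2, against 8.84, 7.63, 7.81 and 7.26 log2 in vehicle GFP- arrays. The fractions did not overlap within an exposure, although the nearest arrays were close. The difference was -0.85 log2 after octanol (SE 0.29, adjusted p = 0.04999, limma), at least 1.65-fold, and -1.20 log2 after vehicle (SE 0.29, adjusted p = 0.0117, limma), at least 2.26-fold. The octanol call is at the edge of the threshold and was lost without octanol replicate 1 (adjusted p = 0.123), 2 (0.182) or 4 (0.125) in limma. The vehicle call was lost without vehicle replicate 1 (adjusted p = 0.0517) or 3 (0.0565).

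Among the surface proteins, Cd22, the inhibitory lectin, stayed under background on all 8 GFP+ arrays. It read 4.64, 4.39, 4.33 and 4.71 log2 in octanol GFP+ arrays, against 7.39, 6.78, 5.93 and 5.84 log2 in octanol GFP- arrays. After vehicle it read 5.17, 4.89, 4.39 and 4.77 log2 in GFP+ arrays, against 8.43, 7.53, 6.57 and 6.02 log2 in vehicle GFP- arrays. Of the GFP- arrays, 2 of 4 after octanol and 3 of 4 after vehicle passed background. The difference for Cd22 was -1.97 log2 after octanol (SE 0.32, adjusted p = 0.00127, limma), at least 1.12-fold, and -2.33 log2 after vehicle (SE 0.32, adjusted p = 4.16e-04, limma), at least 1.77-fold.

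Ms4a1 encodes CD20, a membrane protein of B cells that antibody drugs target. It read 5.55, 5.34, 5.47 and 5.53 log2 in octanol GFP+ arrays, against 8.65, 7.81, 6.57 and 6.70 log2 in octanol GFP- arrays. In vehicle GFP+ arrays it read 5.60, 5.58, 5.03 and 5.28 log2, against 8.73, 8.59, 7.24 and 6.69 log2 in vehicle GFP- arrays. All 8 GFP+ arrays were under background and all 8 GFP- arrays over it. The GFP+ level of Ms4a1 was lower by at least 2.17-fold after octanol (-1.96 log2, SE 0.36, adjusted p = 0.00271, limma) and by at least 2.82-fold after vehicle (-2.44 log2, SE 0.36, adjusted p = 6.63e-04, limma).

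Cd37 encodes a tetraspanin that is abundant on mature B cells and also present on other leukocytes. It read 5.03, 4.70, 5.88 and 6.37 log2 in octanol GFP+ arrays, against 12.91, 12.03, 12.14 and 12.63 log2 in octanol GFP- arrays. The vehicle GFP+ arrays read 5.54, 5.35, 5.65 and 5.48 log2, against 13.25, 12.59, 12.42 and 12.47 log2 in vehicle GFP- arrays. Over both exposures its GFP- arrays spanned the narrowest range of the 7 members, and its GFP+ arrays 3 and 4 after octanol were the highest of the 8. The GFP+ level of Cd37 was lower by at least 68.6-fold after octanol (-6.93 log2, SE 0.26, adjusted p = 1.07e-07, limma) and by at least 82.7-fold after vehicle (-7.18 log2, SE 0.26, adjusted p = 8.07e-08, limma), the largest differences of the 7. With background at the 99th percentile, 7.13 log2, these bounds were 39.3-fold and 47.0-fold.

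Pax5, the transcription factor of B lineage commitment, read 5.50, 5.88, 5.72 and 5.45 log2 in octanol GFP+ arrays, against 7.37, 7.21, 6.14 and 6.08 log2 in octanol GFP- arrays. In vehicle GFP+ arrays it read 5.67, 5.17, 5.65 and 5.71 log2, against 8.88, 7.88, 6.28 and 6.26 log2 in vehicle GFP- arrays. Arrays 1 and 2 of the GFP- fraction passed background in both exposures and arrays 3 and 4 did not. The difference after octanol did not pass (-1.06 log2, SE 0.43, adjusted p = 0.0924, limma). After vehicle the GFP+ level was lower by at least 2.01-fold (-1.78 log2, SE 0.43, adjusted p = 0.0129, limma), a call that was lost without vehicle replicate 1 (adjusted p = 0.0586) or 2 (0.0562).

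**Figure D2:**
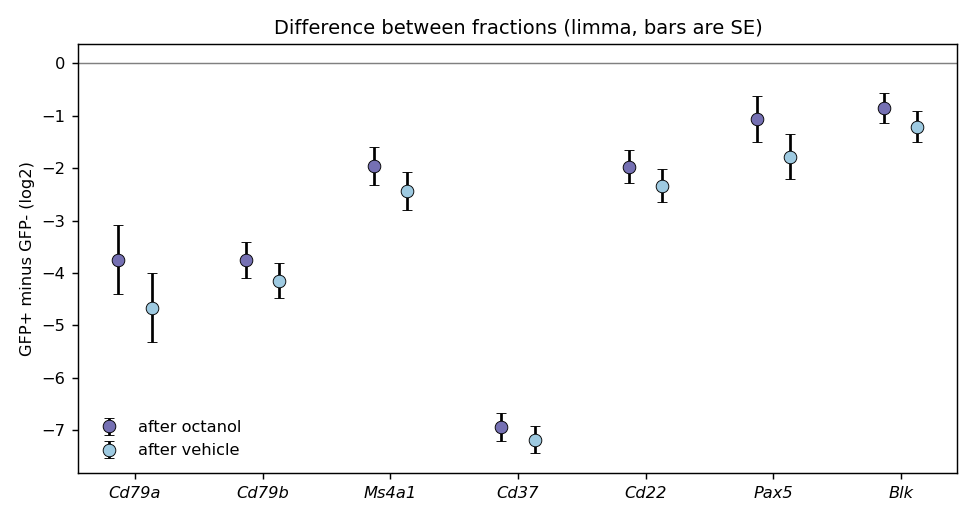
Fitted difference between GFP+ and GFP- cells (vertical axis, log2) for the 7 genes after octanol and after vehicle; points are limma estimates over 4 arrays in each group and bars are their standard errors. All 14 estimates lie below 0, between -0.85 log2 for Blk after octanol and -7.18 log2 for Cd37 after vehicle.

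The members differed among themselves in how much they varied between GFP- arrays. Over the 8 GFP- arrays the SD was 1.36 log2 for Cd79a, 1.01 for Pax5, 0.984 for Cd79b, 0.943 for Ms4a1, 0.915 for Cd22, 0.581 for Blk and 0.395 for Cd37. The median SD of the 13010 genes above background in GFP- arrays was 0.212 log2. Cd79a ran from 9.24 to 12.86 log2, a 12.3-fold range, and 8 of those 13010 genes (0.0615%) had a larger SD. The lists of other cells varied less at their median, beside 0.943 log2 for the members. Erythroid genes came nearest at 0.694 log2. The median was 0.53 log2 for genes of neutrophils and marrow granulocytes, 0.396 for pan-leukocyte genes and 0.085 for mature sensory neuron genes. Vehicle GFP- array 1 was the highest of the 8 for 7 of 7 members, as it was for 20.3% of genes above background, and for 13 of 17 other surface and homing genes of mature B cells. That was not particular to B cell lists: it was also the highest for 3 of 4 erythroid genes and 8 of 16 T and NK cell genes. For pan-leukocyte genes it was the highest for 1 of 8, and for neutrophil and marrow granulocyte genes for 0 of 9.

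Cd79a, Cd79b, Ms4a1, Cd22 and Pax5, grouped after their values were seen, varied together across GFP- arrays. Pearson r lay between 0.874 and 0.977 over their 10 pairs. It lay between 0.838 and 0.991 when each pair lost the 2 arrays farthest from the median of 1 of its genes. The arrays left out thus differed between pairs and did not always include vehicle array 1. The 5 pairs of Blk with these genes had r between 0.598 and 0.811, but between 0.172 and 0.712 with arrays left out in this way. The 6 pairs with Cd37 had r between 0.487 and 0.697, and between 0.052 and 0.889 in this way. Over the 15 pairs without Cd37, r ran from 0.598 to 0.977. These are descriptions over 8 arrays of separate pools, measured on a shared platform. Averaged over the 7 members, the arrays read 9.42, 8.90, 8.07 and 7.995 log2 in octanol GFP- and 10.31, 9.53, 8.75 and 8.11 log2 in vehicle GFP-. Vehicle array 1 was thus the highest and octanol array 4 the lowest. In both exposures the mean fell from array 1 to array 4, and the r values here were not adjusted for array number. The members' mean followed that of the mature B cell surface list (r = 0.951, and 0.955 without the 2 arrays farthest from the median of the members' mean). It also followed the B lineage transcription factors (0.943 and 0.908). For receptor signalling genes r was 0.822 and 0.731, and for precursor genes 0.776 and 0.745. For the sensory neuron list it was 0.814 and 0.797, although that list's mean stayed between 15.87 and 16.12 log2. The members' mean followed T and NK cell genes less steadily (0.758 and 0.332). It had little relation to pan-leukocyte genes (0.064 and 0.264) or plasma cell genes (0.266 and 0.128) and ran against neutrophil genes (-0.604 and -0.273). What moved these lists together was not tested.

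**Figure D3:**
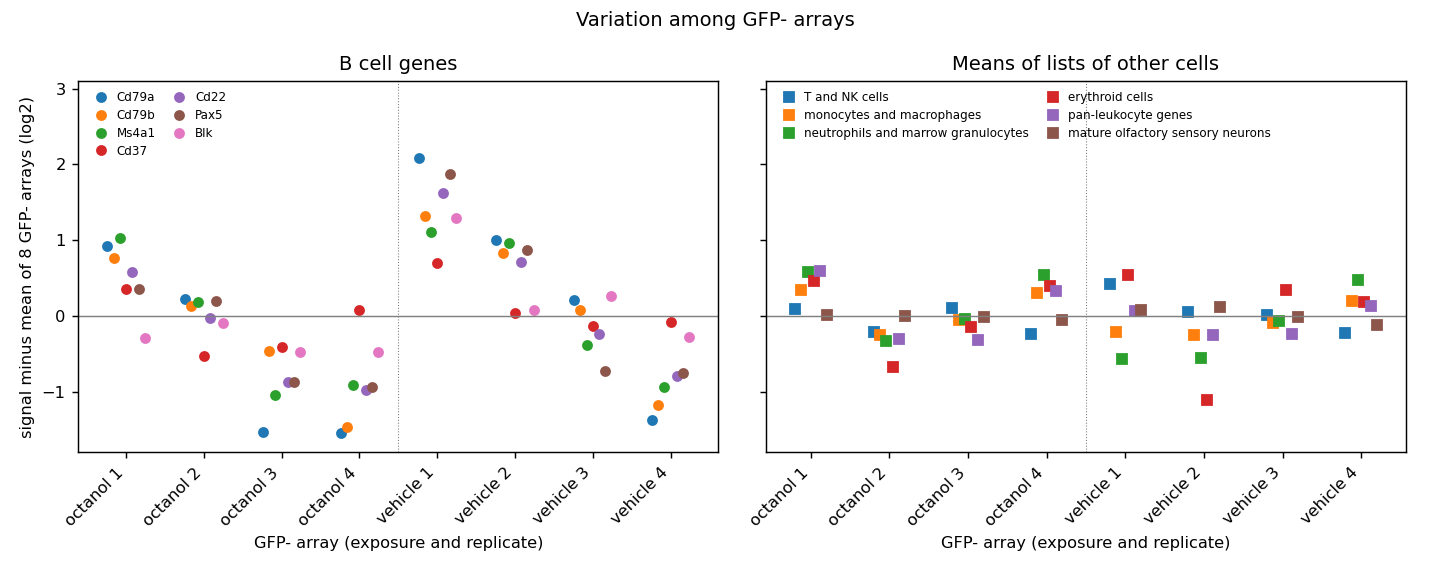
Signal of each GFP- array minus the mean of the 8 GFP- arrays (vertical axis, log2) for the 7 B cell genes (left) and for the mean of each list of other cells (right); points are arrays, with octanol arrays left of the dotted line and vehicle arrays right of it. Cd79a spreads over 3.62 log2 and Cd37 over 1.22 log2, while the sensory neuron mean stays close to 0.

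The genes outside the members whose GFP- profile was most like the members' mean, of 13003 above background, were Pml (r = 0.988), Scd1 (0.977), Gsk3a (0.974), Fmn2 (0.971), Ago2 (0.970), Cmah (0.968), Papola (0.967) and Xpo1 (0.967), over 8 arrays. None of them is in the lists used here. Scd1, a fatty acid desaturase, ran from 8.45 to 11.85 log2 in GFP- arrays and stayed between 7.30 and 8.18 log2 in GFP+ arrays. Cmah, an enzyme that makes a sialic acid, ran from 7.19 to 10.09 log2 in GFP- arrays and from 5.10 to 6.69 log2 in GFP+ arrays. The other 6 spanned similar levels in both fractions: Xpo1, a nuclear export receptor, read 14.18 to 14.79 log2 in GFP+ arrays and 14.20 to 14.69 log2 in GFP- arrays.

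In 2 further lists, of B cell receptor signalling and of mature B cell surface genes, most genes were lower in GFP+ cells. Of 13 other genes of B cell receptor signalling, 11 were lower after octanol and 11 after vehicle, and none was higher (medians -2.995 and -3.19 log2). Prkcb, a protein kinase C, differed by -4.18 log2 after octanol and -4.09 log2 after vehicle. Inpp5d, a lipid phosphatase of blood cells, differed by -3.65 and -3.97 log2, Vav1, a guanine exchange factor of blood cells, by -3.82 and -3.79 log2, and Dapp1, an adaptor, by -3.31 and -3.61 log2. Many genes of this list act in other leukocytes too. Vehicle GFP- array 1, the highest GFP- array for 7 of 7 members, was the highest for 6 of these 13 genes. Cd81, a tetraspanin of many cell types, read 17.8 log2 in each group and did not pass (0.05 log2 after octanol and 0.04 log2 after vehicle). Cr2, the complement receptor, did not pass either (-0.14 and -0.39 log2), and 1 of 16 arrays, vehicle GFP- array 1, read over background at 7.15 log2.

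Of 17 surface and homing genes of mature B cells, 10 were lower in GFP+ cells after octanol and 11 after vehicle, none higher (medians -1.19 and -1.43 log2). Cd52, a glycoprotein of lymphocytes and other leukocytes, was at least 41.0-fold lower after octanol and at least 47.0-fold lower after vehicle. Tnfrsf13c, the receptor for the B cell survival factor BAFF, was 5.17-fold lower after octanol and 12.3-fold lower after vehicle. Its 4 arrays were 10.68, 10.47, 10.03 and 9.31 log2 in octanol GFP- cells and 13.06, 11.21, 11.01 and 9.89 log2 in vehicle GFP- cells. Ly6d, a surface protein of B cells and epithelia, was at least 5.16-fold lower after octanol and at least 8.58-fold lower after vehicle, and Fcrla, an Fc receptor-like protein of B cells, at least 1.28-fold and 2.05-fold. These 4 are the largest called differences after vehicle. Others, named after their values were seen, were nearly level. Cd40 differed by -0.03 log2 after octanol and Ccr7 by -0.06 log2 after vehicle. Mean Fcer2a was 7.86 log2 in GFP+ and 7.905 log2 in GFP- cells after octanol, and 7.76 and 8.23 log2 after vehicle. Ccr6 was under background on all 16 arrays.

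The transcription factors were mixed. Of 12 measured beside Pax5, 5 were lower and 1 higher in GFP+ cells after octanol, and 7 lower and 2 higher after vehicle. Of all genes, 16.7% were higher after octanol and 14.7% after vehicle. Spib, a factor of B cells and plasmacytoid dendritic cells, differed by -3.94 log2 after octanol and -4.36 log2 after vehicle, and stayed under background on all 8 GFP+ arrays. Ikzf1, which encodes Ikaros, differed by -3.57 and -3.96 log2, and Pou2af1, the octamer factors' B cell coactivator, by -1.94 and -2.59 log2. Ikzf3, which encodes Aiolos, differed by -0.89 log2 (adjusted p = 0.0313, limma) and -1.30 log2 (adjusted p = 0.00497, limma). The higher ones, named after their values were seen, were Bcl6 (0.83 log2 after octanol and 0.71 log2 after vehicle) and, after vehicle alone, Bcl11a (0.33 log2, adjusted p = 0.0495, limma; 0.32 log2 after octanol, adjusted p = 0.0557). Ebf1, which specifies early B cells and is also known as a factor of olfactory sensory neurons, did not pass in either exposure. Its mean was 16.54 log2 in GFP+ and 16.29 log2 in GFP- cells after octanol, and 16.58 log2 in GFP+ and 16.39 log2 in GFP- cells after vehicle. Bach2 (-0.26 and -0.43 log2) and Foxo1 (0.15 and 0.07 log2) did not pass.

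Genes of B cell precursors gave 4 lower of 9 in each exposure, of which Cd24a, Il7r and Vpreb3 were lower in both. Cd24a, a surface antigen of immature B cells and many other cells, was 52.4-fold lower in GFP+ cells after octanol and at least 63.6-fold lower after vehicle. Il7r, the interleukin-7 receptor of lymphoid precursors and T cells, differed by -2.71 and -3.47 log2, and Vpreb3, a protein of precursor and some mature B cells, by -1.79 and -2.62 log2. Vpreb3 read 9.39, 7.92, 7.25 and 6.52 log2 in octanol GFP- arrays and 9.22, 8.99, 8.59 and 7.05 log2 in vehicle GFP- arrays. Array 1 was highest and array 4 lowest in both exposures, as for Cd79a, Cd79b, Cd22 and Pax5. Lef1 was past the threshold after vehicle (-0.59 log2) with 1 GFP- array over background, and not after octanol (-0.26 log2). Vpreb1 and Vpreb2, parts of the surrogate light chain of precursors, were under background on all 16 arrays. So were Rag2 and Dntt, which act in immunoglobulin gene rearrangement. Of these Dntt, named after its values were seen, was past the threshold after octanol (-0.71 log2, adjusted p = 0.0461, limma) and not after vehicle (-0.57 log2), and the others passed in neither exposure. Igll1, another part of that chain, read just over background on all GFP- arrays, at 6.49 to 7.005 log2 after octanol and 6.48 to 6.64 log2 after vehicle. Its GFP+ arrays read 6.17 to 6.44 log2 and 6.06 to 6.67 log2, and it passed in neither exposure.

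Of 8 plasma cell genes, 3 were lower in GFP+ cells after octanol and 4 after vehicle. Jchain, which joins secreted antibody units, was at least 11.8-fold lower after octanol and at least 16.03-fold lower after vehicle, with 9.96 ± 0.85 log2 in octanol GFP- and 10.35 ± 0.62 log2 in vehicle GFP- cells (SD, n = 4). Xbp1, a secretory factor of many cells, differed by -0.50 and -0.56 log2. Prdm1, the plasma cell repressor of Pax5, differed by -0.90 and -0.86 log2 and Derl3 by 0.23 log2, not past the threshold, and -0.46 log2, all under background. Mzb1 and Tnfrsf17 were under background on all 16 arrays, and with Sdc1 and Edem2 did not pass in either exposure. Immunoglobulin genes and Lyn were not analysed here.

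**Figure D4:**
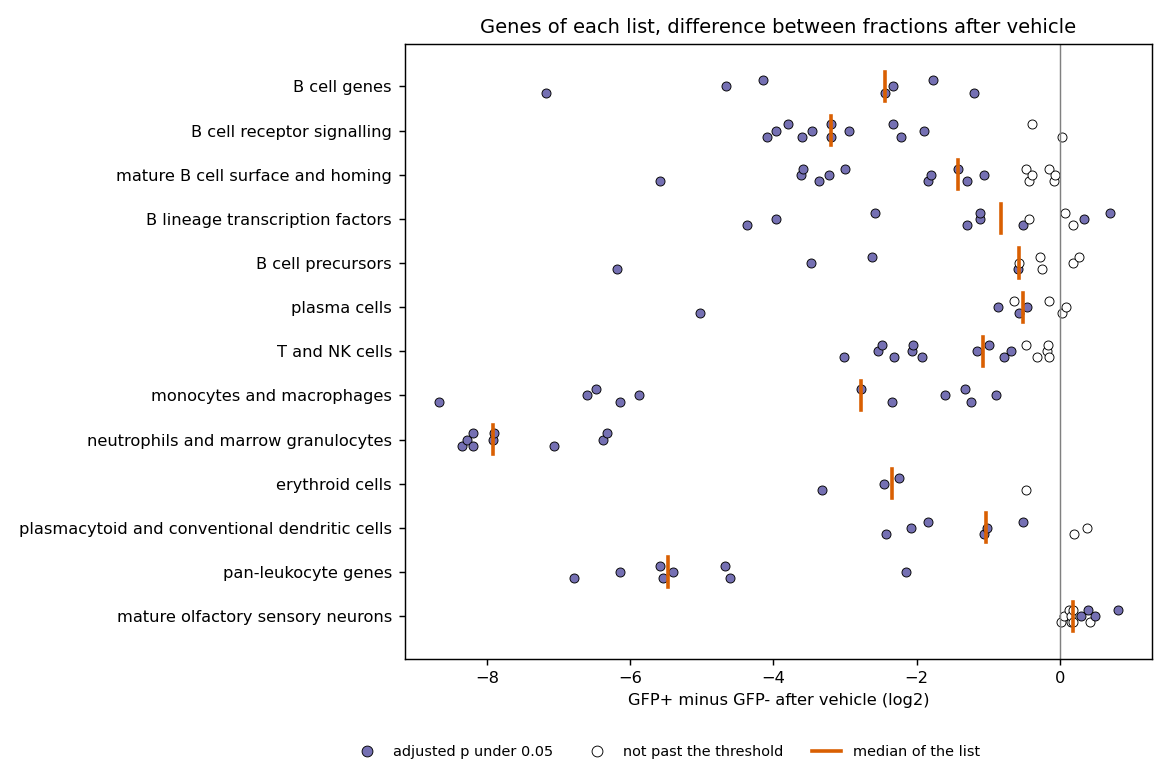
Difference between GFP+ and GFP- cells after vehicle (horizontal axis, log2) for each gene of the lists of B cell, other blood cell and neuron genes; points are genes, filled where the limma adjusted p is under 0.05, and bars are list medians. The median is -2.44 log2 for the B cell genes, -7.91 for neutrophil and marrow granulocyte genes, -5.47 for pan-leukocyte genes and 0.19 for mature sensory neuron genes.

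Genes of other blood cells were also lower in GFP+ cells. Of 9 neutrophil and marrow granulocyte genes, 9 were lower in each exposure (medians -6.70 log2 after octanol and -7.91 log2 after vehicle), as were 8 of 8 pan-leukocyte genes. Monocyte and macrophage genes gave 10 and 11 of 11, T and NK cell genes 9 and 11 of 16, dendritic cell genes 6 and 6 of 8 and erythroid genes 3 and 3 of 4. Retnlg, a neutrophil secreted protein, was 111-fold lower after octanol and 326-fold lower after vehicle. Ly6c2, a monocyte antigen, was 180-fold lower after octanol and at least 396-fold lower after vehicle, and Slc4a1, the red cell anion exchanger, 9.33-fold and 10.0-fold lower. The neutrophil list mean lay at 8.01, 7.94, 9.38 and 10.29 log2 in octanol GFP+ arrays and between 7.14 and 8.11 log2 in vehicle GFP+ arrays. Arrays 3 and 4 of octanol GFP+ were thus the highest for neutrophil genes, and they were also highest for Cd79a and Cd37. Without the octanol pools numbered 3 and 4, 5 of 7 members were lower after octanol, with a median of -2.78 log2 and Blk no longer past the threshold (adjusted p = 0.0943, limma). The part of other leukocytes in these readings was not tested.

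Octanol against vehicle moved no member past the threshold in either fraction, where 0% of all genes were called. In GFP- cells all 7 fitted differences were under 0, at -0.96 log2 for Cd79a (SE 0.73), -0.67 for Blk (SE 0.28), -0.65 for Cd22 (SE 0.50), -0.63 for Pax5 (SE 0.56), -0.52 for Cd79b (SE 0.55), -0.38 for Ms4a1 (SE 0.54) and -0.26 for Cd37 (SE 0.24). The median was -0.63 log2 for the members and -0.02 log2 over all genes, and the smallest adjusted p of a member was 0.982 in limma. In this fit, which has no block for replicate numbers, Blk had the only unadjusted p under 0.05 (0.0371, limma), where 2.56% of genes were lower at that level. Octanol and vehicle arrays overlapped for all 7 genes, and 1.51% of all genes had every octanol GFP- array below every vehicle one. Without vehicle GFP- array 1, the highest for all 7, the median of the members was -0.17 log2. Over all 19505 genes, 10503 had a difference under 0 in GFP- cells. Of the other lists in GFP- cells, 12 of 12 B lineage transcription factors and 15 of 17 mature B cell surface genes had differences under 0, 0 past the threshold. Vehicle GFP- array 1 was the highest for 8 of those 12 and 13 of those 17, and no median without it is given for these lists. The 12 include Ebf1, Bcl6 and Bcl11a, which did not read lower in GFP+ cells. The remaining B lineage lists were mixed, with medians near 0. Under 0 were 9 of 13 receptor signalling genes (median -0.05 log2), 4 of 9 precursor genes (0.09) and 4 of 8 plasma cell genes (0.002). All 9 of 9 neutrophil genes had differences over 0 (median 0.40 log2, 0 past the threshold).

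In GFP+ cells the members differed between octanol and vehicle by -0.32 to 0.10 log2, 5 of 7 under 0, and the smallest adjusted p was 0.9996 in limma (smallest unadjusted p = 0.124). How far octanol shifted the difference between fractions was tested as an interaction, and the estimates ran from 0.25 log2 for Cd37 (SE 0.37) to 0.91 log2 for Cd79a (SE 0.93). No member passed (adjusted p = 0.998 for each, smallest unadjusted p = 0.271, limma), where 0% of genes were called in either direction and 2.59% were higher at an unadjusted p under 0.05. Leaving out the octanol pools numbered 3 and 4 turned the sign for 5 of the 7. The means had the same order for each member: vehicle GFP- highest, octanol GFP- next, and both GFP+ groups below them. Within a fraction, no difference between neighbours in that order passed the threshold.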

How the data were processed

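RNA from 2 sorted fractions of each of 8 pools of mice was measured on Clariom S arrays. The log2 signals were deposited by the authors and come from Affymetrix Expression Console, per the submitters' processing notes (no version or settings given in the sources used here). Values of 2.22 to 18.70 log2, with array medians of 7.42 to 7.70, were used unchanged. Of 28846 probe sets, 6640 controls and 2634 without a gene symbol were left out, and the probe set with the highest mean stood for each gene, giving 19505 genes matched by Entrez number to RefSeq GRCm38.p6.

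Differences were fitted with limma 3.58.1 (lmFit, eBayes) in R 4.3.3 and adjusted by Benjamini-Hochberg over all genes. The fraction comparisons and the interaction used all 16 arrays, with a fixed block for each pool; octanol against vehicle used the 8 arrays of a fraction. That both fractions of a number come from the same mice is inferred from 24 mice in 8 pools of 3; their residuals correlated at 0.0779 to 0.222, over 0.1 in 6 of 8 pools. P-values of octanol against vehicle measure the spread between pools of mice. Those of the fraction comparisons and the interaction measure how the difference between fractions varies from pool to pool, with the spread shared over both exposures. The fits were tested on simulated data with independent noise and no pool effect, which cannot check how the block handles differences between pools. Members and gene lists were chosen with earlier results of these data known, and so were the rules: all members are named, and from each list up to 4 (other cell types 3) of the largest called differences after vehicle and the uncalled genes where there were at most 4, of which examples are given. Alternatives were other scalings, filters, blocks, background levels and left-out arrays.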

Additional observations from a re-analysis of the deposited data

Results flagged for a closer look

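In groups of 4 arrays, an array was singled out where its gap to the nearest other, divided by the range, exceeded Dixon's 95% critical value. Of 144 groups checked, over 36 genes, 5 stood out, and chance singles out about 1 in 20. Of the members' 28 groups, 1 did: Pax5 on vehicle GFP+ array 2, at 5.17 log2, under the other arrays at 5.65 to 5.71, all of them below background. Dapp1 on octanol GFP+ array 1 was at 6.26 log2, under the others at 6.98 to 7.13. Ikzf1 on vehicle GFP+ array 1 was at 7.58 log2, over the others at 7.08 to 7.10. Edem2 stood apart on array 3 of both vehicle fractions, at 12.19 log2 in GFP+ (others 12.52 to 12.57) and at 12.51 log2 in GFP- (others 12.38 to 12.40). No group in which Cd79a, Cd79b, Ms4a1, Cd37, Cd22 or Blk was checked stood out.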

How the results depend on the processing

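The members called lower in GFP+ cells numbered 5 to 7 after vehicle and 5 to 6 after octanol when each replicate was left out; Blk and Pax5 were the ones lost after vehicle, and Blk after octanol. After octanol, Blk was also lost with quantile normalization (adjusted p = 0.1002) and with median centring of the arrays (0.0914), which left 5 of 7, and Pax5 was gained with arrays centred on odorant receptors (0.0334) or that exposure fitted alone (0.0188), which gave 7 of 7. Without the replicate block 7 of 7 members passed after vehicle and 6 of 7 after octanol. The 5502 genes called after vehicle and 5826 after octanol became 14745 and 13429 with arrays centred on their median, and 3547 after octanol without octanol pools numbered 3 and 4, an alternative chosen after seeing the data; fewer arrays entered that fit. The share of called genes that were higher moved with scaling. After vehicle it was 52.2% as deposited, 65.0% with quantile normalization, 86.5% with median centring and 24.3% with receptor centring; after octanol it was 55.9%, 63.4%, 84.9% and 12.9%. The median of all genes moved to 0.46 log2 after vehicle and 0.41 log2 after octanol with median centring, and to -0.04 and -0.20 log2 with receptor centring, while the members' median stayed between -2.60 and -1.70 log2 under these scalings. Without octanol pools 3 and 4 the octanol effect on the fraction difference was reversed for Cd79a (-0.65 log2), Cd79b (-0.26), Ms4a1 (-0.34), Cd37 (-0.43) and Cd22 (-0.24), none past the threshold; the cause was not tested. Octanol against vehicle in GFP+ cells, also never past it, changed sign on leaving out single arrays, with ranges of -0.26 to 0.22 log2 for Cd79a, -0.29 to 0.010 for Cd79b, -0.011 to 0.18 for Ms4a1, -0.30 to 0.25 for Cd37 and -0.039 to 0.15 for Pax5. With background at the 99th percentile the bound for Blk after octanol was 1.06-fold. Exposure replicate numbers were also tried as a replicate block in GFP- cells: residuals of same-numbered octanol and vehicle arrays correlated at 0.0719 to 0.332, over 0.1 in 3 of 4 numbers (different numbers -0.286 to 0.117). The rule asked for all 4 and the labels tie no number to a shared day, so the numbers were not taken to pair arrays, though 4 of 4 octanol and 3 of 4 vehicle arrays correlated best with their own number. That block left 0 genes called (smallest member adjusted p = 0.745) and brought 5 of 7 members to an unadjusted p under 0.05, against 1 without it and 3.51% of all genes lower. Cd79a, Cd79b, Cd22, Pax5 and Blk were below the same-numbered vehicle array in 4 of 4 numbers, as were 8.31% of genes.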
